A study of Saccharomyces cerevisiae with 4 samples.

Results

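The genes described here encode the malate dehydrogenases, the enzymes particular to the glyoxylate cycle and those particular to gluconeogenesis in *Saccharomyces cerevisiae*. They are the rows for MDH1 (YKL085W), MDH2 (YOL126C), MDH3 (YDL078C), ICL1 (YER065C), MLS1 (YNL117W), PCK1 (YKR097W), FBP1 (YLR377C) and ACS1 (YAL054C), 8 of the 6212 rows of the table, chosen by their systematic names. A trk1 trk2 double mutant of strain BY4741, which lacks the high-affinity potassium uptake system, was compared with wild-type BY4741. Both strains grew to log phase, an A600 of 0.6, at 28 °C in a medium with 15 µM potassium of its own and 50 mM added KCl. BY4741, the background of both strains, is a laboratory strain of mating type a that carries several auxotrophic deletions. The sources used here do not give the carbon source or the way the TRK genes were removed, so whether the strains differ in a marker gene is not known here. Each of the 4 arrays carried cDNA of both strains in opposite dyes, with the mutant in Cy5 on arrays 1 and 4 and in Cy3 on arrays 2 and 3, and per the labels the arrays come from 2 experiments, each repeated with the dyes exchanged.

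Malate dehydrogenase interconverts malate and oxaloacetate, and budding yeast has separate enzymes for it in the mitochondrion (MDH1), the cytosol (MDH2) and the peroxisome (MDH3). The glyoxylate cycle bypasses the decarboxylating steps of the tricarboxylic acid (TCA) cycle, so that acetyl units can be built into malate and oxaloacetate, and gluconeogenesis turns oxaloacetate into sugar phosphates. In this yeast MDH2, ICL1, MLS1, PCK1, FBP1 and ACS1 are textbook examples of genes repressed by glucose.

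The values are logarithms, taken to be of base 2, of the mutant signal over the wild-type signal, so a negative value means less transcript in the mutant. Total RNA of whole cultures was compared, so fewer cells with a transcript and less transcript per cell cannot be told apart. The arrays held 4690 to 5403 values each, 4255 genes had a value on all 4, and pairwise correlations between arrays ran from 0.255 to 0.792, the 3 lowest all with array 4. The deleted TRK1 read −6.126 on array 1 and −4.601 on array 4 and was empty on arrays 2 and 3, and TRK2 read −4.226 on array 4 alone. Of 6 a-specific marker genes 5 had a value on all 4 arrays, and MFA1 had one on array 3 alone. Of 4 alpha-specific genes SAG1 had a value on all 4 arrays, and MF(ALPHA)2 on none. STE3 and MF(ALPHA)1 had a value on array 4 alone, 0.916 and 3.538. All values of both kinds were positive, and a ratio gives no level by which to judge either kind.

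Of the 8 genes, 6 had a value on all 4 arrays and were tested, and only MDH2 differed between the strains in that test. MDH2, the cytosolic malate dehydrogenase of gluconeogenesis, was 3.02-fold lower in the mutant. It read −1.480 and −1.714 on arrays 1 and 2, taken here as experiment 1, and −1.730 and −1.460 on arrays 3 and 4, taken as experiment 2. The labels do not settle this pairing, and every value given by experiment below rests on it. All 4 arrays lay well below 0, and their range of 0.27 was smaller than the median range over genes, 0.635. The experiment means were −1.597 and −1.595 (−1.605 and −1.587 if arrays 1 and 3 belong together, and 2 and 4), and their difference of 0.002 was among the smallest of the 4255 genes, at rank 4234 when ordered from the largest. The mean was −1.60 ± 0.16 (limma's moderated SE, n = 2 experiments, adjusted p = 0.00642), which placed MDH2 22nd from the lowest. Over all genes 74 of 4255 passed as lower, or 1.74%, and 69 as higher, or 1.62%, which makes 3.36% in either direction. Among the 6 tested members, limma called 1 lower and 0 higher, and the counts at an unadjusted p under 0.05 were also 1 and 0. At that unadjusted threshold 12.9% of all genes were lower and 7.33% higher, so 1 of 6 without adjustment is near the background. The call of MDH2 was lost without array 3 (log2 ratio −1.53, adjusted p = 0.267), where 0 of all genes passed and 385 had an unadjusted p under 0.05. It was also lost when variances were not shared between genes (adjusted p = 0.339), where 3 of all genes passed.

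**Figure D1:**
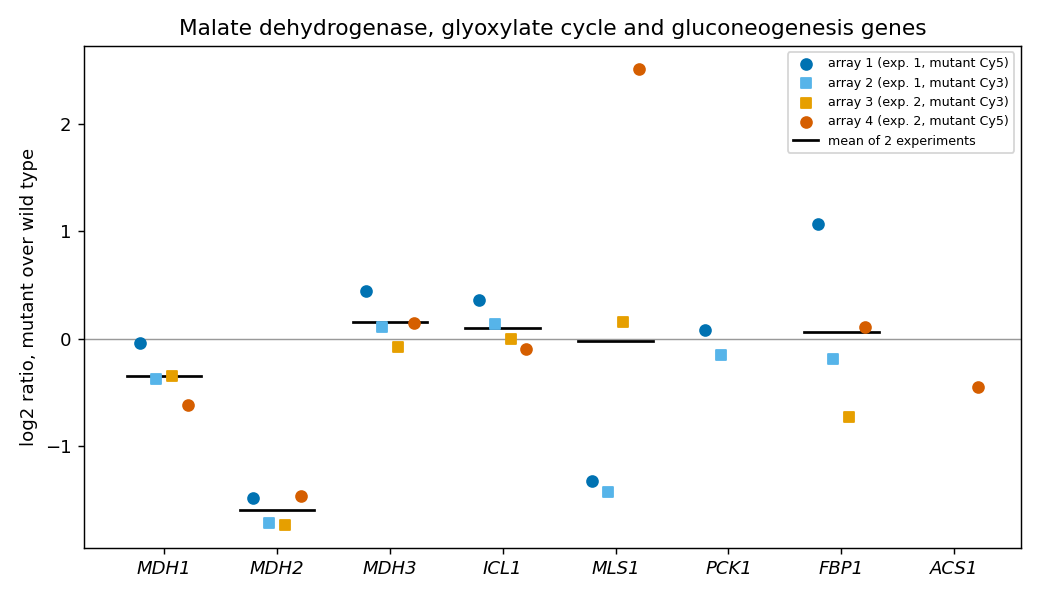
Log2 ratio, mutant over wild type (vertical axis), for each of the 8 genes (horizontal axis), 1 point per array, circles for the mutant in Cy5 and squares for the mutant in Cy3, with black lines at the mean of the 2 experiments where all 4 arrays held a value. MDH2 lies between −1.730 and −1.460 on every array, while MLS1 runs from −1.423 to 2.509.

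The mitochondrial and peroxisomal malate dehydrogenases read much closer to 0. MDH1, the TCA cycle enzyme, read −0.040, −0.371, −0.345 and −0.619 on arrays 1 to 4. It was below 0 on every array, as was MDH2, and these 2 of the 6 tested members had 1 sign throughout, against 38.6% of all genes tested. Its mean was −0.34 ± 0.17 (SE, n = 2 experiments) and did not pass in limma (adjusted p = 0.317). MDH3, which reoxidises NADH made by fatty acid oxidation in the peroxisome, read 0.440, 0.112, −0.077 and 0.148, with a mean of 0.16 ± 0.17 (SE, n = 2 experiments) that did not pass (limma adjusted p = 0.637).

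Within each array the ratio of MDH2 lay below those of the other malate dehydrogenases. It was lower than that of MDH1 by −1.440, −1.343, −1.385 and −0.841 on arrays 1 to 4, a mean difference in log2 ratio of −1.25 ± 0.20 (SD, n = 2 experiments). Against MDH3 the differences were −1.920, −1.826, −1.653 and −1.608, with a mean of −1.75 ± 0.17 (SD, n = 2 experiments). MDH1 in turn lay below MDH3, by −0.480, −0.483, −0.268 and −0.767, with a mean of −0.50 ± 0.025 (SD, n = 2 experiments). Each of the 3 differences was negative on 4 of 4 arrays, so that sign alone does not set MDH2 apart. With 2 experiments a two-sided exact permutation test of their signs cannot go below 0.5, and that was its p for each of the 3. These are differences in response and not in level, since ratios do not compare the abundance of one transcript with that of another.

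The genes beside MDH2 on its chromosome, looked at after its values were known, did not share its low ratio. RPL25, a ribosomal protein gene, read 0.325, −0.179, −0.055 and 0.833, with a mean of 0.23 ± 0.17 (SE, n = 2 experiments, limma adjusted p = 0.492). TRM13, a tRNA methyltransferase gene, read −0.014, −0.522 and 0.605 on arrays 1, 2 and 4 and was empty on array 3. The 3 genes nearest to MDH2 by Euclidean distance over the 4 arrays were QDR2 (YIL121W), a multidrug transporter, at 0.172, OLE1 (YGL055W), the fatty acid desaturase, at 0.38, and LAF1 (YMR102C) at 0.6. Their means were −1.65, −1.44 and −1.39, and each passed in limma (adjusted p = 0.00587, 0.0101 and 0.0179). They were chosen for values close to those of MDH2 on these same arrays. Their low means and their calls therefore follow largely from that choice and lend MDH2 no support.

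Neither of the enzymes particular to the glyoxylate cycle, isocitrate lyase and malate synthase, passed the test. ICL1, the isocitrate lyase that splits isocitrate into glyoxylate and succinate, read 0.360, 0.141, −0.005 and −0.100. It was above 0 on arrays 1 and 2 and slightly below 0 on arrays 3 and 4, and its mean of 0.10 ± 0.17 (SE, n = 2 experiments) did not pass (limma adjusted p = 0.774).

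MLS1, the malate synthase that condenses glyoxylate with acetyl-CoA, read −1.318, −1.423, 0.158 and 2.509 on arrays 1 to 4. The experiments pointed in opposite directions, with means of −1.37 and 1.33, and in experiment 2 the array with the mutant in Cy3 and its dye swap differed by more than the arrays of experiment 1 did. The mean over experiments was −0.02 ± 0.56 (SE, n = 2 experiments, limma adjusted p = 0.99). With arrays 1 and 3 paired, and 2 and 4, the means would be −0.58 and 0.54, and those of ICL1 0.18 and 0.02. The ratio of MLS1 minus that of ICL1 was −1.678, −1.564, 0.163 and 2.609, below 0 on 2 of 4 arrays, with a mean of −0.12 ± 2.13 (SD, n = 2 experiments, two-sided exact permutation p = 1.0). The mean of MLS1 near 0 comes from arrays far apart and does not describe any of arrays 1, 2 and 4. Its difference between experiments, 2.70, was the 6th largest of 4255 genes, against an SD of 0.463 over genes (1.12 and 44th with the other pairing), and its SD over the arrays, 1.83, was the 10th largest. Of the 6 tested members, ICL1 and MLS1 had opposite signs in the 2 experiments on all arrays, as 10.5% of all genes did, and the same 2 had experiments that did not overlap, as 40.5% of all genes did.

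The array pattern of MLS1 was shared by other genes, which were picked out after its values were seen. A total of 8 of 4255 genes, MLS1 included, lay below −1 on arrays 1 and 2 and above 1 on array 4. On array 3, which did not enter their choice, all 8 read between 0.158 and 0.53. That range is set by the 8 genes themselves, with MLS1 at its lower end. The share of all genes within it was not counted, so this closeness cannot be judged. The mirror pattern, above 1 on arrays 1 and 2 and below −1 on array 4, was held by 2 genes. The nearest to MLS1 were YLR161W at a distance of 0.335, SGE1 (YPR198W), a drug transporter, at 0.353, and SSN3 (YPL042C), the Mediator kinase, at 0.403. SSN3, for instance, read −1.437, −1.627, 0.411 and 2.303. The others were YLR122C, YLR012C, YLR162W and PMT6 (YGR199W), a protein O-mannosyltransferase. In limma 0 of the 8 passed, at adjusted p or at an unadjusted p under 0.05. Choosing genes by opposite signs on arrays 1 and 2 and on array 4 keeps their means near 0. That outcome therefore follows from the choice and says nothing about the genes. What these spots share beyond their ratios was not tested.

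**Figure D2:**
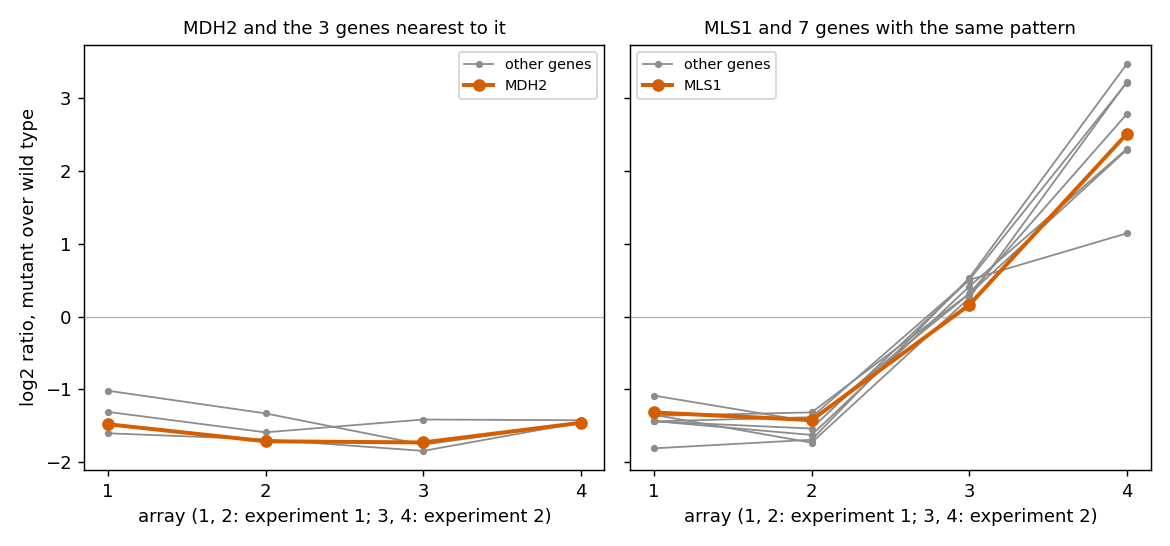
Log2 ratio of mutant over wild type (vertical axis) on each array (horizontal axis), with lines joining the values of 1 gene and no order among arrays implied; orange marks MDH2 (left) and MLS1 (right) and grey the genes nearest to MDH2 or with the pattern of MLS1. The MDH2 set stays below −1 on every array, while the MLS1 set is below −1 on arrays 1 and 2, between 0.158 and 0.53 on array 3 and above 1 on array 4.

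DAL7 (YIR031C), the second malate synthase of this yeast, belongs to allantoin breakdown and is closely related to MLS1. It read 0.353 on array 1, −1.193 on array 3 and −0.415 on array 4 and was empty on array 2, so it did not follow MLS1. Without probe sequences, cross-hybridisation between the 2 genes could not be separated, and the MLS1 ratio is uncertain for that reason too. The genes beside MLS1 read 0.170, 0.273, 0.619 and −0.182 for DMA2 and −0.919, 0.466 and 0.067 for DCP2 on arrays 1, 3 and 4, without the high value of MLS1 on array 4.

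Of FBP1, PCK1 and ACS1, only FBP1 had a value on all 4 arrays. FBP1, the fructose bisphosphatase that bypasses phosphofructokinase, read 1.065, −0.186, −0.726 and 0.108. It was above 0 on both arrays with the mutant in Cy5 and below 0 on both with the mutant in Cy3. Its mean was 0.07 ± 0.22 (SE, n = 2 experiments, limma adjusted p = 0.896). The difference between the dye orientations, 1.04, was the 65th largest of 4255 genes, against an SD of 0.398 over genes. Its sign turned without array 1 (−0.25) or array 4 (−0.14).

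PCK1, the phosphoenolpyruvate carboxykinase that commits oxaloacetate to gluconeogenesis, had values in experiment 1 alone, 0.079 with the mutant in Cy5 and −0.151 after the dye swap. It was left out of the test, which took only genes with a value on all 4 arrays. If arrays 1 and 2 are a dye swap of 1 experiment, as assumed here, the gene also has no replicate. A fit that took arrays as separate replicates gave −0.04 (limma adjusted p = 0.931). ACS1, an acetyl-CoA synthetase that supplies the glyoxylate cycle, had 1 value, −0.452 on array 4. Spots below the submitters' limits on diameter or fluorescence are empty in the table, so the missing values of PCK1 and ACS1 give neither a level nor a direction.

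Dye orientation moved with several of these ratios. For 3 of the 6 tested members, MDH2, MDH3 and FBP1, both arrays with the mutant in Cy5 read higher than both with it in Cy3, as did 30.8% of all genes. For MDH2 the difference was 0.25, against a mean of −1.60, and the gene was as low as −1.46 on its least negative array. Each experiment holds both orientations, so the difference does not enter the experiment means.

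**Figure D3:**
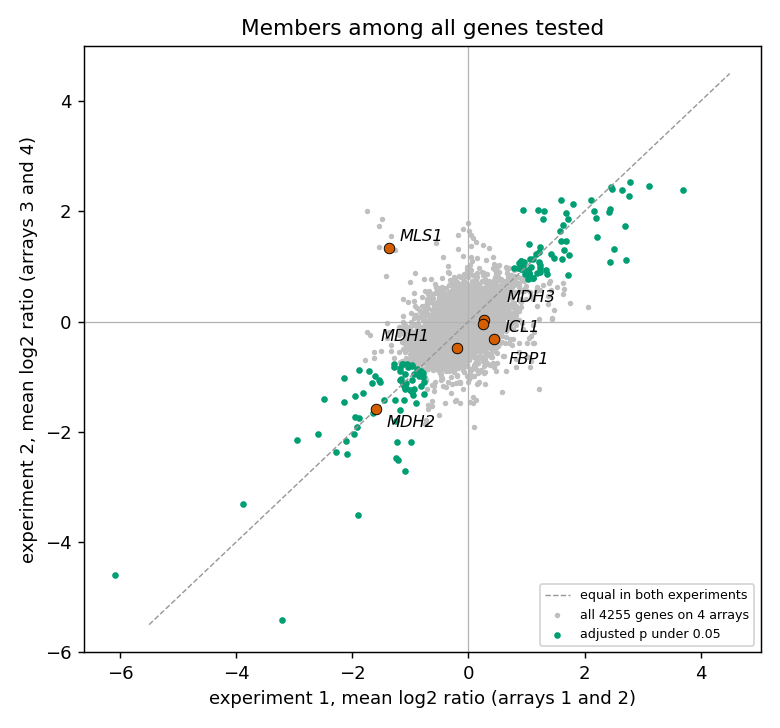
Mean log2 ratio in experiment 1 (horizontal axis) against experiment 2 (vertical axis) for all 4255 genes on 4 arrays (grey), those with an adjusted p under 0.05 (green) and the 6 tested members (orange, named). MDH2 lies on the dashed line of equal ratios at −1.597 and −1.595, MLS1 lies far from it at −1.37 and 1.33, and the other 4 sit among the bulk of genes.

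Of the other genes of the surrounding pathways, 78 were measured on all 4 arrays; limma called 4 higher and 0 lower, and at an unadjusted p under 0.05 the counts were 5 and 10, close to the shares over all genes of 7.33% and 12.9%. Calls in limma stand against 1.62% of all genes higher and 1.74% lower, so 0 calls in a short list is near those shares. The counts given for each list below stand against the same shares. The median log2 ratio of the 78 genes was −0.04, as was that of all genes tested. Among the 78 are 7 glycolytic genes that held 1 shared ratio, described below, which is no measurement of each. Without those 7 the median was −0.06. The 4 genes called higher were CIT2, PYC1, ODC2 and DLD3. Leaving out array 2 left CIT2 and DLD3 past the test, and leaving out array 3 left 0.

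Among 4 measured partners of the glyoxylate route, CIT2 was higher and the others did not pass. At an unadjusted p under 0.05 the list had 1 higher, CIT2, and 1 lower, IDP2. CIT2 (YCR005C), the peroxisomal citrate synthase of the glyoxylate cycle, read 3.827, 3.577, 3.986 and 0.784, high on every array and lowest by far on array 4 (3.04 ± 0.31, SE, n = 2 experiments, limma adjusted p = 0.00642). Without array 4 its log2 ratio was 3.84, and without array 3 it was 2.24 (adjusted p = 0.520). The cytosolic isocitrate dehydrogenase IDP2 read −0.754, 0.169, −0.887 and −0.704, with a mean of −0.54 (limma adjusted p = 0.182), and the peroxisomal IDP3 and the aconitase ACO1 had means of 0.05 and −0.03. CIT2 and DLD3 (YEL071W), a cytosolic hydroxyacid dehydrogenase, are known targets of the retrograde pathway, which answers to mitochondrial state. They are the only targets in the retrograde list, so the pathway's targets were not examined as a set. DLD3 read 3.089, 3.138, 3.277 and 1.630, again lowest on array 4, while the pathway's regulators RTG1, RTG2 and MKS1 did not pass and had means from −0.06 to 0.14. Of the 5 measured genes of the retrograde list, CIT2 among them, limma called 2 higher and 0 lower. The counts at an unadjusted p under 0.05 were also 2 and 0. The list was chosen with earlier results of these data known, so these counts are no test of the pathway.

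Among 8 measured genes that make or exchange oxaloacetate, malate and related acids, 2 were higher and 0 lower in limma, with 2 and 0 at an unadjusted p under 0.05. PYC1 (YGL062W), a pyruvate carboxylase that makes cytosolic oxaloacetate, was 2.04-fold higher. It read 0.971, 1.173, 1.763 and 0.206, above 0 throughout (1.03 ± 0.16, SE, n = 2 experiments, limma adjusted p = 0.0312). ODC2 (YOR222W), a mitochondrial oxodicarboxylate carrier, read 1.152, 0.929, 1.183 and 0.560 and was 1.94-fold higher (0.96 ± 0.17, SE, n = 2 experiments, limma adjusted p = 0.0407). Both calls held in 9 of 15 alternatives each. Without array 3 PYC1 stood at 0.64 (adjusted p = 0.589) and without array 4 at 1.42. PYC2, the other pyruvate carboxylase, was listed in experiment 1 alone, at −1.319 and −1.099, and has a near relative in PYC1, so shared signal could not be separated. ODC1, the paralogue of ODC2, read 0.660, 0.138, −0.077 and 0.426 and did not pass (limma adjusted p = 0.391), and neither did the malic enzyme MAE1 (−0.22) or the aspartate aminotransferase AAT2 (−0.18).

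**Figure D4:**
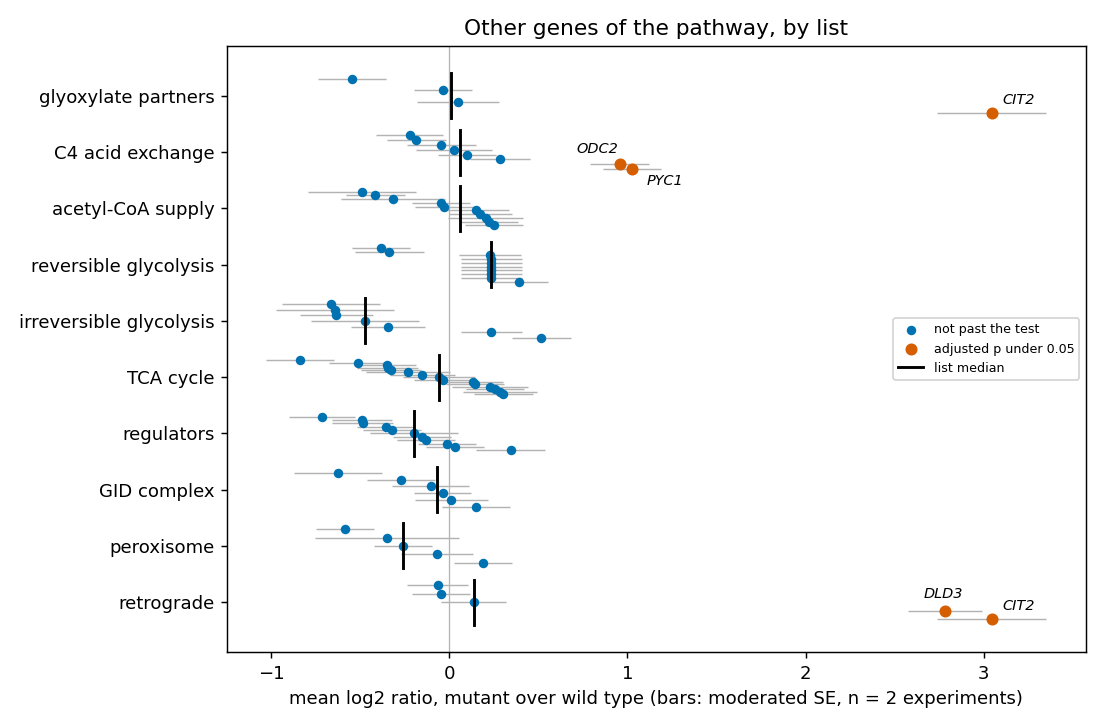
Mean log2 ratio of mutant over wild type (horizontal axis) with the moderated SE (bars, n = 2 experiments) for the other pathway genes on all 4 arrays, by list (vertical axis), orange where the adjusted p was under 0.05 and with black lines at the list medians. CIT2, DLD3, PYC1 and ODC2 stand to the right of every other gene, and the medians of the lists lie between −0.47 and 0.24.

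In the TCA cycle list 15 genes were measured, MDH1 among them, and limma called 0, with 0 higher and 2 lower at an unadjusted p under 0.05, a count near the share over all genes, 12.9% lower. The list median was −0.06. LSC2, a subunit of succinyl-CoA ligase, had the lowest mean, reading −0.584, −0.580, −0.726 and −1.456 (−0.84 ± 0.19, SE, n = 2 experiments, limma adjusted p = 0.0739). The ketoglutarate dehydrogenase subunits KGD2 and KGD1 were below 0 on all 4 arrays, with means of −0.51 and −0.35 (limma adjusted p = 0.151 and 0.292).

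For acetyl-CoA supply, 0 of 10 measured genes passed in limma, with 0 higher and 1 lower at an unadjusted p under 0.05. The means lay between −0.49 and 0.25, and the largest in absolute size belonged to the aldehyde dehydrogenases ALD3 (−0.49), ALD6 (−0.41) and ALD2 (−0.32). ALD3 and ALD2, stress-induced neighbours of near-identical sequence, were above 0 in experiment 1 and at −1.693 and −1.329 on array 4.

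Glycolytic genes could be read only in part. Of the 10 measured genes for reversible steps, 6 (ENO1, ENO2, TDH1, TDH2, TDH3 and FBA1) held the same ratio within 0.003 on every array, 0.128, 0.065, 0.639 and 0.114 for ENO1. The pyruvate kinase gene CDC19, in the irreversible list, held it too, and 12 genes in all did. An identical ratio in 12 genes is no measurement of each, so neither a change nor its absence can be read from it, and scanner intensities were not used here. PGK1, the phosphoglycerate kinase gene, held it on all arrays but array 2. The reversible list's median of 0.24 therefore rests on that shared ratio. The remaining 3 genes of the list, the mutase GPM1 and the isomerases PGI1 and TPI1, had means of 0.39, −0.38 and −0.34 (limma adjusted p = 0.254, 0.261 and 0.38). Neither glycolytic list had a call in limma. At an unadjusted p under 0.05 the reversible list had 0 genes and the irreversible list 1 higher and 1 lower, with the genes of shared ratio counted among those tested. In the irreversible list the hexokinase HXK1 and the second pyruvate kinase PYK2 were lowest on array 4, at −1.911 and −1.661, with means of −0.66 and −0.64. PFK2, a phosphofructokinase subunit, was lowest in experiment 1 instead, at −1.071 and −0.824 (mean −0.63, limma adjusted p = 0.155).

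Regulators of glucose derepression had 11 measured genes and 0 calls in limma, with 0 higher and 3 lower at an unadjusted p under 0.05, and a median of −0.20, against 12.9% of all genes lower at that threshold. MIG3, a repressor related to Mig1, read −0.345, −0.633, −1.193 and −0.681 (−0.71 ± 0.18, SE, n = 2 experiments, limma adjusted p = 0.103). SIP1, a subunit of the Snf1 kinase, and OAF1, an oleate-responsive activator, both had means of −0.49. CAT8 and SIP4, the activators of the gluconeogenic genes, were empty on all 4 arrays. The GID complex, a ubiquitin ligase that marks Fbp1, Mdh2 and other gluconeogenic enzymes for breakdown, had 6 measured genes and 0 calls, with 0 higher and 1 lower at an unadjusted p under 0.05. Its substrate receptor VID24 read 0.071, −0.371, −0.901 and −1.295 (mean −0.62, limma adjusted p = 0.229). In the peroxisomal list 0 of 5 measured genes passed, with 0 higher and 1 lower at an unadjusted p under 0.05. PEX5, the import receptor for most peroxisomal matrix proteins, read −0.652, −0.601, −0.489 and −0.594, below 0 on every array (−0.58 ± 0.16, SE, n = 2 experiments, limma adjusted p = 0.117).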

How the data were processed

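The authors deposited 1 processed log ratio for each measured gene on each of 4 two-colour arrays. Per the labels, spots smaller than 120 µm or dimmer than 100 fluorescence units were dropped. The sources used here do not give the scanner, the normalization, the centring or the logarithm's base, and the deposited values were taken as log2. The columns correlate positively across the dye swap, so they had been turned one way, and the negative TRK1 and TRK2 ratios set that way as mutant over wild type. Array medians were −0.10 to 0.01. The labels do not settle which arrays belong to an experiment: 1 was paired with 2, and 3 with 4, from the wording of their descriptions. Only the word independent says that the experiments were separate cultures, so p-values measure the spread between these samples.

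The arrays of an experiment were averaged and the 2 means tested against 0 in limma 3.58.1 (lmFit and eBayes, R 4.3.3) over the 4255 genes on all arrays, with p-values adjusted by Benjamini-Hochberg and called under 0.05; the procedure was tested on simulated data. The number of arrays limits the precision. Symbols came from a RefSeq gene table (R64), which matched 5662 rows. The members, the 10 gene lists and the tests were chosen with earlier results of these data known. Named genes were the members, every list gene past the test, up to 3 others per list with the largest absolute mean, and the 3 genes nearest to a called member; genes beside MDH2 and MLS1, those patterned like MLS1, DAL7, PYC2, the genes of shared ratio and the empty CAT8 and SIP4 were added after their values were seen. Lists were described by counts and medians, without a set test. Alternatives changed the pairing, the averaging, the filter, the scaling, the shrinkage and the arrays used. Promoter and protein sequences were not used here.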

Additional observations from a re-analysis of the deposited data

Results flagged for a closer look

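A single array stood apart from the other 3 by Dixon's ratio for 4 of the 40 genes examined, and in all 4 it was array 4. CIT2 read 0.784 there, against 3.577 to 3.986 on the other arrays. DLD3 read 1.63, against 3.089 to 3.277. POT1, the peroxisomal thiolase, read −3.218, against 0.42 to 0.749, and LSC2 read −1.456, against −0.726 to −0.58. None of the 6 members on all 4 arrays was among them. Chance alone flags about 1 in 20 genes that were not picked by their values. Beyond the members, the 40 were list genes past the test or with the largest absolute means, so that rate is no yardstick for them. Array 4 also correlated least with the others, and its part in these values was not tested.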

How the results depend on the processing

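MDH2 stayed below 0 in all 15 alternatives and past the test in 13, with log2 ratios from −1.66 to −1.53 and adjusted p from 0.000933 to 0.339. It missed the threshold without array 3 (−1.53, adjusted p = 0.267) and without shared variances (−1.60, adjusted p = 0.339), which leaves 1 degree of freedom a gene. MDH1, MDH3 and ICL1 passed in 0 of 15 and kept their signs. With 1 array left out, MDH1 ranged from −0.43 to −0.26, MDH3 from 0.07 to 0.24, ICL1 from 0.04 to 0.15, FBP1 from −0.25 to 0.38 and MLS1 from −0.61 to 0.57. MLS1 turned positive with centred arrays (0.033), and without array 2 (0.01) or array 3 (0.57). FBP1 turned negative without array 1 (−0.25) or array 4 (−0.14). PCK1 and ACS1 were not on an array of each experiment and entered none of these, except PCK1, at −0.04, where 2 values on separate arrays sufficed.

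Over all genes, 69 higher and 74 lower, counts became 255 and 473 with the other pairing, 163 and 250 with 4 separate arrays, 103 and 142 with a dye term, and 185 and 292 with the experiment as a random block. They were 40 and 39 over genes on at least 1 array of each experiment, 130 and 179 over genes with at least 2 values, 106 and 99 with centred arrays, 39 and 45 with quantile normalization, and 2 and 1 without shared variances. With 1 array left out they ranged from 0 to 96 higher and 0 to 121 lower, and the 4 higher pathway genes from 0 to 4, with 0 lower. The lone array of an experiment is then not balanced for dye. The causes of these shifts were not tested. Each ratio already pairs mutant with wild type on its array, and the test of the means against 0 uses that pairing. No further pairing was possible because the arrays form 1 group of ratios with no second group that shares their numbers. Background correction was not varied, since scanner intensities were not used here.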
